A study of Mus musculus with 5 samples.

Results

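Among 9 megakaryocyte and platelet genes of sorted mouse bone marrow LSK cells, Itga2b, Gp1ba and Selp fell in the libraries titled KO against those titled WT, by 1.57-fold, 1.73-fold and 2.02-fold. Megakaryocytes are the marrow cells that shed platelets, and LSK cells are the lineage-negative, Sca1-positive, cKit-positive fraction in which stem cells and multipotent progenitors lie. The 9 members, Gp1ba, Gp1bb, Gp9, Itga2b, Itgb3, Gp6, Pf4, Vwf and Selp, were taken by name as platelet adhesion receptors and granule genes, from 24399 genes in the count table. For each gene the RefSeq transcript with the most counts was used. Of the 9, 8 passed the filter on low counts, and Gp6 had 0 counts in all 5 libraries.

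The mice were C57BL/6 animals aged 12 months. The study set wild-type mice beside mice with a germ line knockout, with 3 libraries of the first title, KO, and 2 of the other, WT. Titles and genotypes disagree for the KO libraries, whose genotype is entered as heterozygous, and they are called KO-labelled for that reason; the WT libraries carry a wild-type genotype. A germ line allele is present in every cell of the animal, so its effects need not be limited to LSK cells. The labels do not say whether each library came from its own animal or from pooled animals, and p-values therefore reflect only how these libraries vary, which may be technical. Counts totalled 36060320, 39423495 and 39691066 for the KO-labelled libraries, numbered 1 to 3, and 29964556 and 38674416 for WT libraries 1 and 2. The markers of the sort were present in every library, with Kit at 1086 to 1227 and Ly6a, which encodes Sca1, at 74.9 to 104.5 CPM (counts scaled to 1000000 per library, with the library total multiplied by the TMM composition factor).

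Platelets stop bleeding by sticking to an injured vessel wall and then to each other. At high flow the receptor built from Gp1ba, Gp1bb and Gp9 products catches von Willebrand factor, the Vwf product, on exposed collagen; Gp6 encodes the signalling receptor for collagen itself. The integrin made of the Itga2b and Itgb3 chains then binds fibrinogen and links platelets together, while granules release platelet factor 4 (Pf4) and von Willebrand factor and carry P-selectin (Selp) to the surface. Several of these genes are not confined to megakaryocytes: Itga2b, Vwf and Selp messages are also found in haematopoietic stem cells, in particular those biased towards platelets or from old mice, and Vwf and Selp are classic endothelial genes. In bulk RNA, fewer cells of a type and less RNA per cell cannot be told apart.

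The promoters of the 3 genes that fell are shown with that of Pf4, whose values lay in the other direction, so that the sequence upstream of members with unlike patterns can be compared. Each is the 250 bases before the annotated start, 5′ to 3′ on the gene's own strand, from RefSeq on GRCm38.p6. They lie at chr11:70638872-70639121 (Gp1ba, plus strand), chr11:102469884-102470133 (Itga2b, minus strand), chr1:164115014-164115263 (Selp, plus strand) and chr5:90772185-90772434 (Pf4, plus strand). Capitals mark matches on either strand to 4 GATA-type words (AGATAA or AGATAG or TGATAA or TGATAG) or to 4 ETS-type words (AGGAAG or CGGAAG or AGGAAA or CGGAAA), the letters read by the GATA and ETS factor families of megakaryocytes.
Gp1ba: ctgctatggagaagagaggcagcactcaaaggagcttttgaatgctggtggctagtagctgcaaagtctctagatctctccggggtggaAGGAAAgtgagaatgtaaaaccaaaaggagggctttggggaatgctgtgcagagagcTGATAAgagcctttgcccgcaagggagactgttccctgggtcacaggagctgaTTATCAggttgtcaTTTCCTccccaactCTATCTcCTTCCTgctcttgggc
Itga2b: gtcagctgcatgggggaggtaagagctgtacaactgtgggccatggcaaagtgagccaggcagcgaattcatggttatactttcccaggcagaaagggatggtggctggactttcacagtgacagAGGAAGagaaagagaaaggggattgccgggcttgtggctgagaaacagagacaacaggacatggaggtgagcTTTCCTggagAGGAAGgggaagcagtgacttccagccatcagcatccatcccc
Selp: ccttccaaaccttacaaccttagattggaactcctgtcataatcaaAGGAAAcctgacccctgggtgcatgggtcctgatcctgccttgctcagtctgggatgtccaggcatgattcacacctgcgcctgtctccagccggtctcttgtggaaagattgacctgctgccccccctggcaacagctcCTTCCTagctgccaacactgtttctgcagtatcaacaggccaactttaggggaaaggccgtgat
Pf4: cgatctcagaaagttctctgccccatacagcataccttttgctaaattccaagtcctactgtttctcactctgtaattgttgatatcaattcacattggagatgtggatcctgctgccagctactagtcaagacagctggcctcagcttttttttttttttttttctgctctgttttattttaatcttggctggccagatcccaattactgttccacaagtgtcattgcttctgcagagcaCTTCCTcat
Gp1ba held 3 GATA-type words, of which the nearest ended 18 bases before the start, and 3 ETS-type words. Itga2b, Selp and Pf4 held 0 GATA-type words in this window, and 3, 2 and 1 ETS-type words. A GATA-type word was present in 26.5% of 32851 promoter windows of the same length and an ETS-type word in 57.2%. A match is a description of letters and not a bound site. Of the 9 members, 7 had a promoter in that table, all but Itgb3 and Vwf; of those not printed, Gp1bb and Gp6 held 1 GATA-type and 1 ETS-type word each, and Gp9 held 0 and 2.

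Of the messages for the 3 chains of the von Willebrand factor receptor, 1 passed as lower. Gp1ba, the chain that binds von Willebrand factor, stood at 13, 11.7 and 14.6 CPM in KO-labelled libraries 1 to 3 and at 22.1 and 23.3 CPM in WT libraries 1 and 2. Every KO-labelled library was below both WT libraries. The log2 fold change, KO-labelled over WT, was -0.79 ± 0.17 (SE; adjusted p = 0.0331 by edgeR's quasi-likelihood test over all tested genes, as for each adjusted p below). That call was lost without KO-labelled library 2 (adjusted p = 0.0824), KO-labelled library 3 (0.0766), WT library 1 (0.302) or WT library 2 (0.314).

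Gp1bb, the small chain bound to Gp1ba by a disulfide bridge, stood at 5.48, 3.28 and 5.80 CPM in KO-labelled libraries and 5.2 and 4.73 CPM in WT. The groups overlapped, with KO-labelled library 2 lowest, and the log2 fold change was -0.03 ± 0.33 (adjusted p = 0.983). Septin5, a septin gene that overlaps Gp1bb on the same strand and whose transcripts can run on into it, stood at 6.86 to 10.5 CPM in KO-labelled and 8.57 and 9.72 CPM in WT libraries (log2 fold change -0.16 ± 0.25, adjusted p = 0.849). How reads shared by the overlapping genes were counted is not given in the sources used here. Another Gp1bb transcript had the same counts as the one used in KO-labelled libraries 1 and 3 (198 and 229). It also did in WT libraries 1 and 2 (156 and 185). Reads shared by overlapping transcripts thus appear to have been counted for each. Shared reads may enter both Gp1bb and Septin5, so both values are uncertain. Gp9, which the complex needs to reach the surface, stood at 9.83, 7.60 and 13.8 CPM in KO-labelled and 11.5 and 20.9 CPM in WT libraries. The WT libraries differed more from each other than WT library 1 did from the KO-labelled ones, and the log2 fold change of -0.64 ± 0.29 did not pass (adjusted p = 0.351). Without WT library 2 the log2 fold change of Gp9 was -0.15. Per kilobase of transcript, the level of Gp1ba was 1.83, 2.75 and 1.93 times that of Gp1bb in KO-labelled libraries and 3.27 and 3.79 times in WT, without overlap. Against Gp9 the same ratio was 0.344 to 0.501 in KO-labelled and 0.625 and 0.364 in WT libraries, with overlap.

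Of the messages for the fibrinogen receptor, that of the alpha chain passed as lower. Itga2b, which encodes that chain and is an early surface marker of the megakaryocyte lineage, stood at 151.5, 125.4 and 161.8 CPM in KO-labelled libraries and at 229.0 and 229.4 CPM in WT. The WT libraries were nearly equal and the KO-labelled ones lay well below them. The log2 fold change was -0.65 ± 0.10 (adjusted p = 0.00657), and of the 14 alternative analyses it was kept in 12; without WT library 1 the adjusted p was 0.233 and without WT library 2 it was 0.164. Itgb3, the beta chain, which also pairs with the product of Itgav, stood at 167.4, 88.0 and 121.0 CPM in KO-labelled and 143.4 and 184.3 CPM in WT libraries. KO-labelled library 1 lay between the WT libraries, and the log2 fold change was -0.39 ± 0.27 (adjusted p = 0.62). Leaving out KO-labelled library 1 moved it to -0.65 (adjusted p = 0.128), and leaving out KO-labelled library 2 moved it to -0.19. Itgav stood at 27.0 to 33.8 CPM in KO-labelled and 40.0 and 44.5 CPM in WT libraries (log2 fold change -0.50 ± 0.14, adjusted p = 0.101). Per kilobase, the alpha chain message was 1.52 to 2.40 times that of the beta chain in KO-labelled libraries and 2.09 and 2.69 times in WT, so this ratio overlapped.

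Gp6, the collagen receptor of mature platelets, had 0 counts in each library. A count of 0 allows up to 3 counts, which equals 0.076 to 0.1 CPM, for counting error only. Its signalling partner Fcer1g, which other myeloid cells express as well, was present at 26.4 to 29.0 CPM in KO-labelled and 20.5 and 21.2 CPM in WT libraries (log2 fold change 0.42 ± 0.14, adjusted p = 0.195).

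The granule genes did not move as a group. Selp, the adhesion molecule that binds leukocytes once granules fuse with the surface, stood at 167.7, 105.3 and 163.2 CPM in KO-labelled libraries and at 288.3 and 298.4 CPM in WT. No KO-labelled library reached the WT values. The log2 fold change was -1.01 ± 0.17 (adjusted p = 0.019). The size held in the alternatives, at -1.14 to -0.83, while the call was lost in 5 of 14, among them without KO-labelled library 1 (adjusted p = 0.121), WT library 1 (0.226) or WT library 2 (0.163). Gm16548, a long non-coding gene on the opposite strand that overlaps Selp, fell alongside, from 41.5 and 42.3 CPM in WT to 24.7, 15.5 and 22.5 CPM (log2 fold change -1.0 ± 0.18, adjusted p = 0.011). Whether the counting used strand is not given, so reads of Selp and of this antisense gene cannot be told apart. For Selplg, which encodes the leukocyte ligand of P-selectin, the log2 fold change was -0.12 ± 0.10 (adjusted p = 0.639).

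Vwf had the most counts of the 9 members before correction for length, with 337.4, 180.9 and 275.2 CPM in KO-labelled libraries and 332.3 and 412.2 CPM in WT. KO-labelled library 1 lay between the WT libraries and KO-labelled library 2 far below them. The log2 fold change of -0.49 ± 0.27 did not pass (adjusted p = 0.508), and it was -0.28 without KO-labelled library 2 and -0.71 without KO-labelled library 1. Pf4, a chemokine stored in alpha granules, was the member with values in the other direction, at 37.9, 19.3 and 38.9 CPM in KO-labelled and 17.6 and 19.3 CPM in WT libraries. KO-labelled library 2 was level with WT while the other KO-labelled libraries were higher. The log2 fold change of 0.79 ± 0.26 did not pass (adjusted p = 0.196), but without KO-labelled library 2 it was 1.05 and passed (adjusted p = 0.00408).

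**Figure D1:**
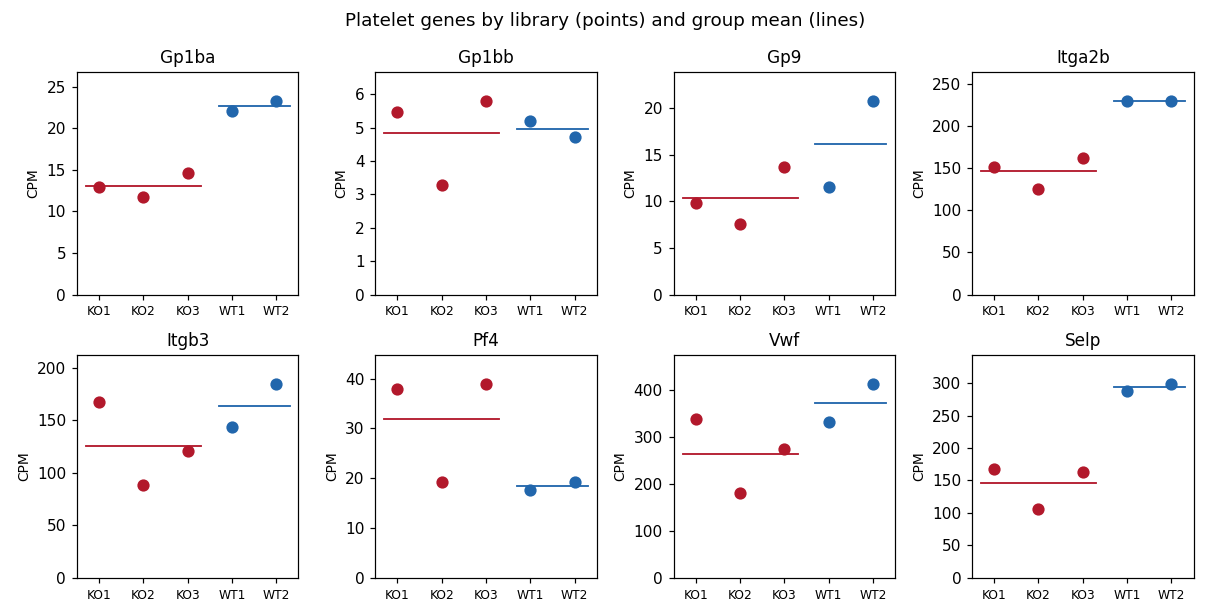
CPM (vertical axes, from 0, each gene on its own scale) of the 8 members with counts in KO-labelled (KO1 to KO3, red) and WT (WT1 and WT2, blue) libraries; points are libraries and lines are group means. Gp1ba, Itga2b and Selp separate the groups widely, and KO-labelled library 2 is the lowest KO-labelled point in all 8 panels.

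In all, 3 of the 8 tested members fell and 0 rose. Over all tested genes, 1.97% of 14565 passed, 1.18% lower and 0.790% higher. Every KO-labelled library was below both WT libraries for 3 members (Itga2b, Gp1ba and Selp) and above both for 1 (Pf4, where KO-labelled library 2 and WT library 2 were nearly equal), as was the case for 16.3% and 16.5% of all tested genes. The median log2 fold change of the 8 members was -0.57, with a range of -1.01 to 0.79, against a median of 0.001 over all tested genes with quartiles of -0.19 and 0.16. Unadjusted p fell under 0.05 for 5 of the 8, 4 lower and 1 higher. Over all tested genes it did so for 2007 of 14565, 1023 lower and 984 higher.

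Levels compared per kilobase of transcript put Selp first in WT libraries, at a mean of 85.3 CPM per kilobase, followed by Itga2b (66.7), Vwf (42.1), Pf4 (31.4), Itgb3 (28.3), Gp9 (18.4), Gp1ba (8.38) and Gp1bb (2.38). Of neighbours in that order, Pf4 and Itgb3 overlapped between libraries and the others did not. Within each WT library, Pf4 was still above Itgb3 (30.0 against 24.8 and 32.8 against 31.9). In KO-labelled libraries Pf4 came first at a mean of 54.5 CPM per kilobase, then Itga2b (42.5), Selp (42.3), Vwf (29.9), Itgb3 (21.7), Gp9 (11.8), Gp1ba (4.83) and Gp1bb (2.33). There each neighbour from Pf4 down to Gp9 overlapped the next between libraries, and Gp1ba and Gp1bb stood apart below them. Within each KO-labelled library, Selp was above Vwf, Vwf above Itgb3 and Itgb3 above Gp9. In both groups the mean level per kilobase of each integrin chain, Selp and Vwf was above that of each chain of the von Willebrand factor receptor.

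The KO-labelled libraries were not alike in these genes. KO-labelled library 2 had the lowest value of the 3 KO-labelled libraries for 8 of 8 members, and the lowest of all 5 libraries for 7, the exception being Pf4. Over all tested genes, KO-labelled library 2 was the lowest of the 3 for 32.1%. Summed over the members, it reached 541.5 CPM, against 890.3 and 794.1 CPM in KO-labelled libraries 1 and 3 and 1050 and 1193 CPM in WT.

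**Figure D2:**
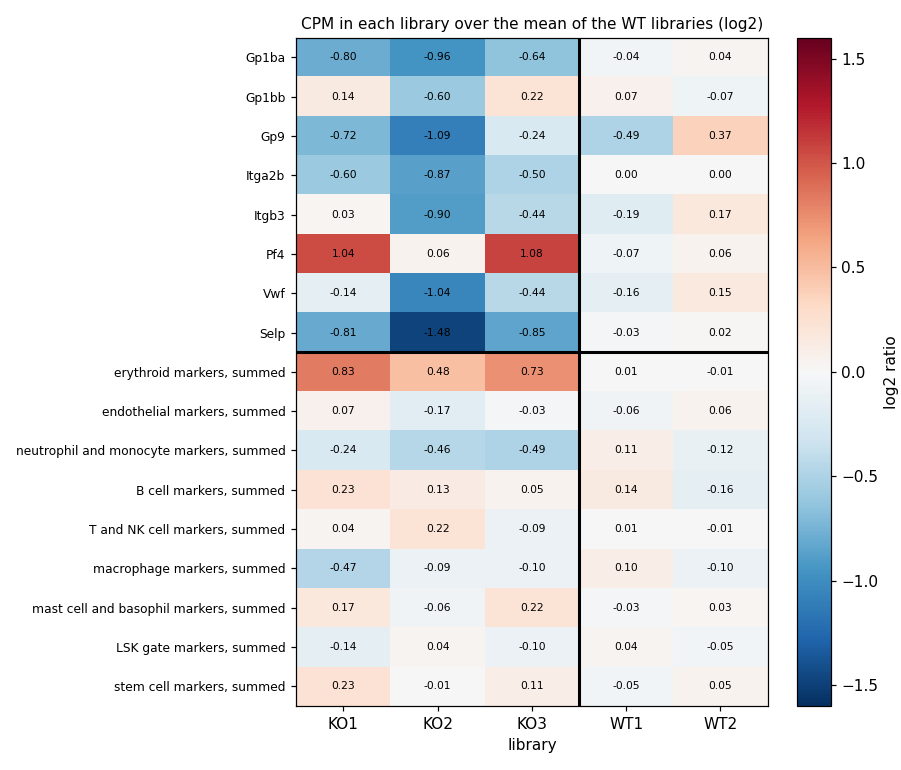
Each cell gives log2 of a library's CPM over the mean of the WT libraries, for the 8 members (above the line) and for summed marker lists of other cell types, the sort gate and stem cells (below it). In KO-labelled library 2, Selp is at -1.48 and Vwf at -1.04, while erythroid markers are above 0 in the 3 KO-labelled libraries (0.48 to 0.83).

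Likeness between genes was measured as the root-mean-square difference of log2 CPM, centred on each gene's mean, over the 5 libraries, among 12728 other tested genes at 1 CPM or more. Of the 28 pairs of members, Itgb3 and Vwf were closest (0.081), followed by Gp1ba and Itga2b (0.0827), and Pf4 and Selp were farthest apart (0.876). Within the complexes, Itga2b and Itgb3 differed by 0.276 and Gp1ba and Gp1bb by 0.412. Of the whole table, the genes most like Itga2b were Fbxo17, the granule protease Ctsg and the fucosyltransferase Fut8 (0.0337 to 0.0523), and for Gp1ba they were Gpcpd1, Cabcoco1 and Lbp (0.0247 to 0.0661). Selp was most like Gm16548 (0.0369), then Slc22a4 and Klrb1c, and Vwf was most like Kif21a (0.0331), Enpp5 and Itgb3. Gm16548 overlaps Selp, so reads counted for both cannot be told apart from likeness between the genes. Over 5 libraries, 16 genes lay within 0.1 of Gp1ba and 17 of Itga2b, but 0 of Pf4, whose nearest were Slc25a21, Slpi and Map2 (0.104 to 0.131).

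Other platelet and megakaryocyte genes mostly did not pass the threshold. Of a list of 67, 66 were tested, of which 3 fell and 1 rose, against 1.18% lower and 0.790% higher over all tested genes. The median log2 fold change was 0.00, with a range of -2.05 to 1.56. The list was not limited to genes particular to platelets, so this median does not describe platelet genes alone. Neither the members nor this list held the thrombopoietin receptor gene. In 12 of the 66 every KO-labelled library was below both WT libraries and in 6 above both. Over all tested genes these shares were 16.3% and 16.5%. Itga6, the alpha chain of a laminin receptor that also marks stem cells, fell 1.52-fold, from 438.2 and 423.6 CPM in WT to 290.9, 260.3 and 301.7 CPM (adjusted p = 0.00348). Pecam1, an adhesion molecule of platelets, endothelium and leukocytes, stood at 207.5 and 197.4 CPM in WT and 125.9, 156.4 and 141.2 CPM in KO-labelled libraries, a log2 fold change of -0.52 ± 0.10 (adjusted p = 0.0167). F13a1, the clotting factor subunit found in platelets and monocytes, stood at 145.6 and 126.9 against 89.0, 92.2 and 100.2 CPM, a log2 fold change of -0.54 ± 0.10 (adjusted p = 0.0129). Gfi1b, a repressor needed for megakaryocytes and red cells, was the gene that rose, from 49.5 and 61.3 to 89.3, 88.5 and 105.7 CPM (log2 fold change 0.77 ± 0.12, adjusted p = 0.00657). The groups did not overlap for any of these 4 genes. All 4 calls were lost without WT library 1 (adjusted p of 0.2 to 0.374) and without WT library 2 (0.0811 to 0.212), and that of Pecam1 also without KO-labelled library 3 (0.0929).

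By role, 2 of 15 other receptors fell and 0 rose (median 0.00). Gp5, the further chain that associates with the von Willebrand factor receptor, stood at 19.0, 13.9 and 18.4 CPM in KO-labelled and 14.6 and 19.5 CPM in WT libraries, with overlap (log2 fold change 0.00 ± 0.20). The thrombin receptor gene F2r stood at 106.7 to 119.2 CPM across all 5 libraries (adjusted p = 0.928). On a list made by name, F2r need not be a receptor of mouse platelets. Of the other listed thrombin receptor genes, F2rl3 stood at 45.8 to 47.2 CPM in KO-labelled and 40.0 and 42.9 CPM in WT libraries (adjusted p = 0.596). F2rl2 stood at 4.43 to 9.25 CPM in KO-labelled and 7.1 and 6.73 CPM in WT libraries (adjusted p = 0.951). Of 17 granule genes 1 fell and 0 rose (median -0.02), and the proteoglycan gene Srgn and Mmrn1, the abundant ones, had log2 fold changes of -0.21 ± 0.07 (adjusted p = 0.203) and 0.10 ± 0.16. Of 11 signalling genes 0 passed (median 0.07); Plcg2, a phospholipase downstream of the collagen receptor, and Syk, its upstream kinase, had log2 fold changes of -0.13 ± 0.08 and 0.07 ± 0.09. Of 11 tested cytoskeletal genes 0 passed (median -0.06), with Tln1, which activates the integrin, at 0.01 ± 0.10 and Flna at 0.11 ± 0.10. Of 12 transcription factor genes 1 rose and 0 fell (median 0.07): Nfe2, which drives platelet release, had a log2 fold change of 0.09 ± 0.09 and Mef2c one of 0.00 ± 0.08. Gata1 stood at 33.4, 29.4 and 46.2 CPM in KO-labelled and 22.2 and 25.9 CPM in WT libraries, and did not pass (adjusted p = 0.154).

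Several other platelet genes, chosen after their values were seen, had low levels. Tubb1, the platelet tubulin, stood at 0.664 to 1.5 CPM in the 5 libraries, Ppbp, the chemokine gene next to Pf4, at 1.02 to 4.40 CPM, and Myl9, a myosin light chain gene, at 0.0256 to 0.076 CPM, at or under the limit of 3 counts. P2ry12, the platelet ADP receptor, stood at 0 to 0.742 CPM. The members Selp, Itga2b, Vwf and Itgb3 were at 88.0 to 412.2 CPM in the same libraries. Of the other members, Gp6 had 0 counts, and Gp1ba, Gp1bb, Gp9 and Pf4 were at 3.28 to 38.9 CPM. Low levels did not hold for the whole list of other platelet genes: Srgn stood at 542.4 to 654.3 CPM and Mmrn1 at 293.1 to 458.5 CPM.

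**Figure D3:**
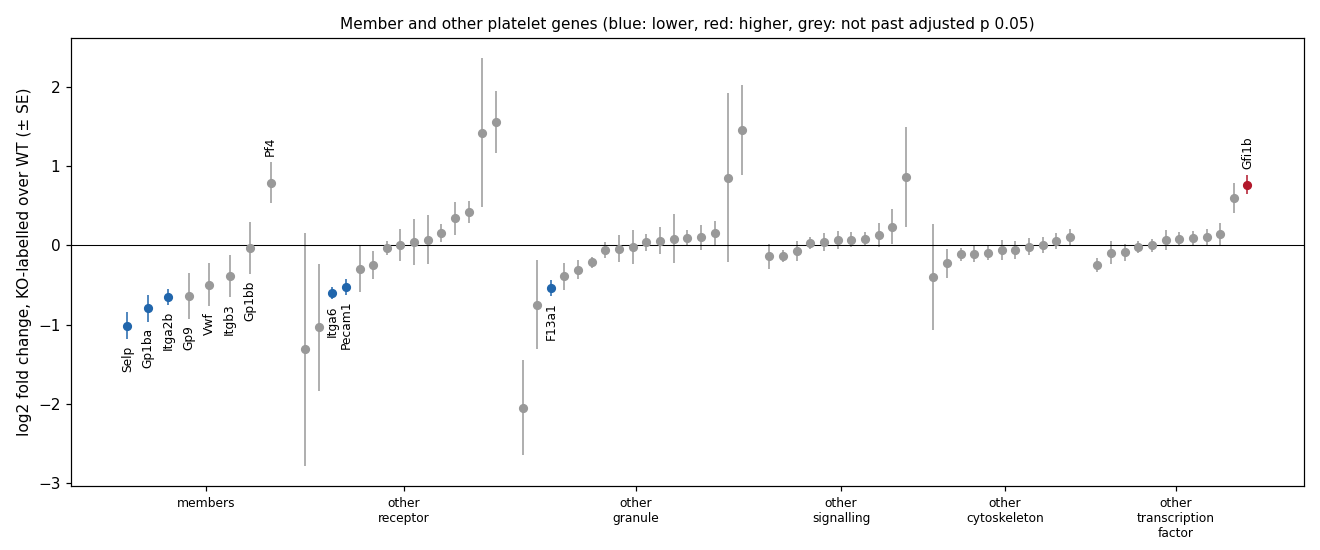
Log2 fold change, KO-labelled over WT, with its SE (bars) for the 8 tested members and 66 other platelet genes by role; blue points passed as lower, red as higher. The 3 members and 3 other genes that fell lie between -1.01 and -0.52, and Gfi1b is at 0.77.

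Markers of other cells were read beside these results, and their part in them was not tested. Of 10 erythroid markers 4 rose and 0 fell (median 1.0; summed level 321.2 to 409.5 CPM in KO-labelled and 229.3 and 232.7 CPM in WT libraries). Of 10 neutrophil and monocyte markers 2 fell and 0 rose (median -0.49; summed 350.8 to 416.0 against 454.1 and 531.5 CPM). Of 10 endothelial markers, relevant to Vwf and Selp, 1 fell, Cldn5 (-2.49), and 0 rose. Their median was 0.02, with 5 below 0 and 5 above. The sum was 321.0 to 376.7 against 344.9 and 375.3 CPM. Much of it came from Tie1, at 123.0 to 160.9 CPM, and Egfl7, at 78.1 to 101.9 CPM, across the 5 libraries. Cdh5, the defining cadherin, stood at 0.332 to 0.742 CPM in KO-labelled and 0.767 and 1.59 CPM in WT libraries. Kdr lay in the other direction, at 9.85 to 18.5 against 9.67 and 9.8 CPM (adjusted p = 0.502). None of the tested markers of B cells (6), T and NK cells (8), macrophages (8) or mast cells and basophils (6) passed by edgeR, with medians of 0.15, 0.07, -0.22 and 0.18. B cell markers summed to 50.9 to 57.6 against 44.2 and 54.3 CPM. T and NK cell markers summed to 134.3 to 166.9 against 141.9 and 144.4 CPM. Macrophage markers summed to 48.7 to 63.2 against 62.7 and 72.1 CPM. Those of mast cells and basophils summed to 261.9 to 316.9 against 267.1 and 278.0 CPM. Single genes made up most of some sums, which are therefore weak measures of those cell types. Across the 5 libraries Cd79b stood at 40.2 to 52.8 CPM and Nkg7 at 93.1 to 104.2 CPM. Gata2, a mast cell and basophil marker also on the list of other platelet genes, stood at 206.4 to 242.5 CPM. The 6 gate markers and 8 stem cell markers, among which 0 passed, had medians of -0.03 and 0.01, and the summed stem cell markers stood at 979.8 to 1156 CPM in KO-labelled and 954.1 and 1018 CPM in WT libraries.

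**Figure D4:**
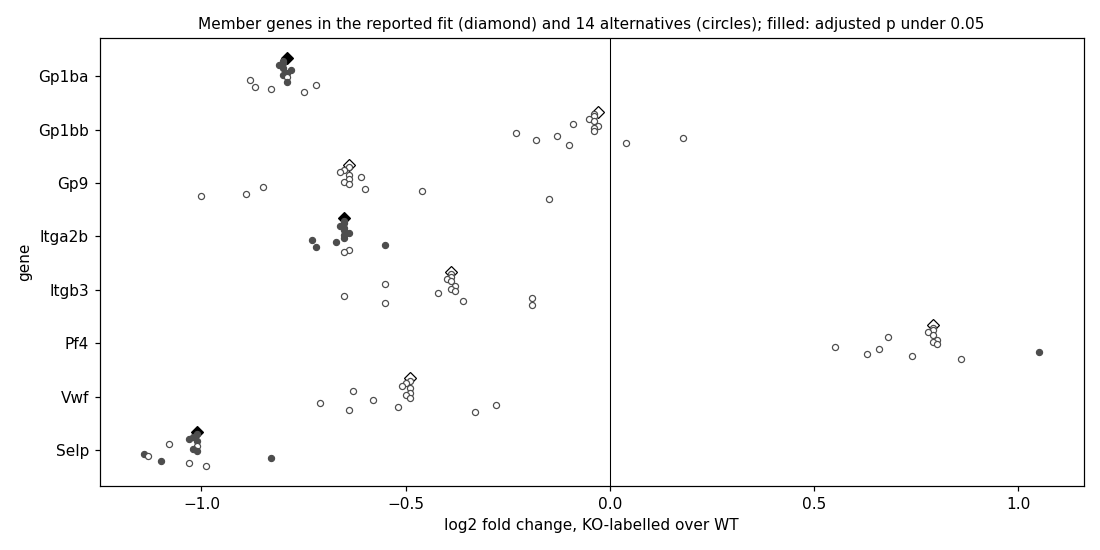
Log2 fold change of each tested member in the reported fit (diamond) and in 14 alternative analyses (circles); filled symbols have an adjusted p under 0.05. Itga2b stays between -0.73 and -0.55, Gp1ba between -0.88 and -0.72 and Selp between -1.14 and -0.83, while Gp1bb crosses 0.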

How the data were processed

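Messenger RNA of LSK cells was sequenced after a stranded library kit, per the labels' protocols. The authors deposited unnormalized counts of reads on 33862 RefSeq transcripts, 1 column for each of 5 libraries. The tools named are STAR, Subread 1.4.5-p1 and featureCounts with the build mm9 (NCBIM37), per the submitters' processing notes; their settings and any use of strand are not given there. RefSeq names of GRCm38.p6 matched 33485 transcripts and GENCODE names 188, and the transcript with the most counts was kept per gene. After edgeR's filterByExpr, 14565 genes were normalized by TMM and fitted together in edgeR 4.0.16 (R 4.3.3). Two-sided p-values of the quasi-likelihood test, robust version, were adjusted by Benjamini-Hochberg over those genes, and an adjusted p under 0.05 passed. The script was tested on simulated counts. The common biological coefficient of variation was 18.9%. Lengths came from GENCODE M21 transcripts, and log2 CPM for likeness used a prior count of 2. Members and lists were chosen with earlier results of these data known. Named genes were the members, companion genes that passed, the 2 most abundant per role, partner and neighbouring genes, and the 3 most alike genes. The others (Gp5, the thrombin receptor genes, Gata1, single markers of other cells and the other platelet genes of low level) were picked after their values were seen. Alternatives were other scalings, DESeq2 1.42.0, limma 3.58.1, other filters, summed transcripts, a block and each library left out. The limit of 3 counts covers counting error only, while each SE is that of the edgeR fit and includes variation between libraries. Some genes, and results that need them, are not reported here.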

Additional observations from a re-analysis of the deposited data

How the results depend on the processing

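Of the 8 tested members, 7 kept their direction in all 14 alternatives; Gp1bb turned to 0.18 without KO-labelled library 2 and to 0.04 without WT library 1 (-0.18 to 0.18 with each library left out). With each library left out in turn, the members past the threshold numbered 0 to 3, the other platelet genes 0 to 6 and all genes 6 to 675; where a WT library was dropped, the remaining WT sample was assumed to vary like the other samples. All genes past it numbered 575 with DESeq2, 624 with limma and sample weights, 455 with no count filter, 454 at an adjusted p under 0.10 and 2007 at an unadjusted p under 0.05. At an unadjusted p under 0.05, 5 members and 13 other platelet genes passed. The title numbers shared by KO-labelled and WT libraries are not said to mark a common animal, litter or day. Deviations of same-numbered libraries correlated at 0.04 and 0.02 across genes. KO-labelled library 3 and WT library 2, of unlike number, also correlated at 0.04, so these values do not decide whether the numbers pair libraries. With that number as a replicate block 160 genes passed, and neither Gp1ba (adjusted p = 0.0784) nor Pecam1 (0.054) did. No WT library is numbered 3, so KO-labelled library 3 was alone in its block and added nothing to those fold changes. Selp did not pass with limma and sample weights (adjusted p = 0.118) or with no count filter (0.113), and Gp1ba did not with summed transcripts (0.0623). The causes of these differences were not tested. Depth limits Gp6, at 0 counts, and Myl9, at 1 to 3 counts.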

Other observations

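The genes next to the members, in the RefSeq order of GRCm38, give a view of whether the fall extended along the chromosome. Itga2b lies between Fam171a2 and Gpatch8, which had log2 fold changes of -0.20 (adjusted p = 0.826) and 0.04 (adjusted p = 0.912). Gp1ba lies between Chrne, at 0 to 0.6 CPM, and the mitochondrial carrier gene Slc25a11, which had 0.18 (adjusted p = 0.451). The clotting factor gene F5, next to Selp, had -0.39 ± 0.17 (adjusted p = 0.338). Cldn5, a tight junction gene next to Gp1bb on the opposite strand, fell from 10.9 and 10.1 CPM in WT to 2.35, 1.84 and 1.42 CPM (adjusted p = 0.00161), while Gp1bb itself had a log2 fold change of -0.03. Cd9, a tetraspanin of platelets next to Vwf, stood at 131.6, 72.6 and 99.8 CPM in KO-labelled and 82.0 and 77.6 CPM in WT libraries (log2 fold change 0.34, adjusted p = 0.523), with its lowest value in KO-labelled library 2, as for Vwf. The chemokine gene Ppbp, next to Pf4, stood at 4.40, 1.41 and 2.68 CPM in KO-labelled and 1.03 and 1.02 CPM in WT libraries (log2 fold change 1.46 ± 0.57, adjusted p = 0.277), so its order of KO-labelled libraries had library 2 lowest too.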
